A study of Rattus norvegicus with 30 samples.

Results

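The 8 genes described here encode proteins of the synaptic vesicle and of its release machinery: Sv2b, Sv2a, Syn1, Syn2, Rims1, Snap25, Syt1 and Vamp2. They were chosen by function from 13337 named genes on a rat Illumina BeadChip, with 1 probe for each gene. The choice was made with earlier results of these data known, and Sv2b was set against the other 7. All 8 genes passed a filter on low intensity, as 9165 of the named genes did. The tissue was amygdala, taken from 30 adult rats of the Sprague Dawley strain and measured on 30 arrays, each with the RNA of 1 rat. There were 6 groups of 5 rats: females and males that smelled a predator and then showed an extreme behavioural response, females and males that smelled it and showed a minimal response, and female and male controls that were not exposed but were tested for behaviour. The labels give no time between exposure and dissection, and exposed rats were classed by behaviour. Per the labels each rat has its own identifier, and females and males carry identifiers of different style, so sex and rat series cannot be told apart. The design text speaks of female rats, while the labels list both sexes.

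Neurons store transmitter in synaptic vesicles and release it when calcium entry at the active zone triggers fusion with the plasma membrane. SV2A and SV2B are membrane glycoproteins of the vesicle, and the synapsins, encoded by Syn1 and Syn2, tether vesicles in the reserve pool. RIM1, the product of Rims1, is an active zone scaffold that docks and primes vesicles and recruits calcium channels. VAMP2 on the vesicle and SNAP25 on the plasma membrane are SNARE proteins that drive fusion, and synaptotagmin 1, encoded by Syt1, is the calcium sensor of fast release. SV2A is found in most kinds of nerve terminal, whereas SV2B is known mainly from glutamatergic ones. The amygdala is a region known for fear learning.

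Sequence around a start was found in RefSeq tables of the GRCr8 assembly for 7 of the 8 genes, and Snap25 is named only. The windows of the 3 genes that passed a test of exposure are shown, so that their composition can be compared. Each runs from 250 bases before to 50 bases after the start used there. That start can lie inside the annotated gene. The Sv2b window falls wholly inside its gene, which runs to 138562635. The Rims1 window falls partly inside its gene, which runs to 32692998, so the windows are not alike in position. Capitals mark matches, on either strand, to a cAMP response element half-site (TGACG), an Sp1 site (GGGCGG), the TATA element (TATAAA), a glucocorticoid receptor half-site (AGAACA) or the CCAAT motif. The Sv2b window lies on the minus strand at chr1:138562209-138562508, that of Rims1 on the minus strand at chr9:32692723-32693022, and that of Syn1 on the plus strand at chrX:3725495-3725794.
Sv2b: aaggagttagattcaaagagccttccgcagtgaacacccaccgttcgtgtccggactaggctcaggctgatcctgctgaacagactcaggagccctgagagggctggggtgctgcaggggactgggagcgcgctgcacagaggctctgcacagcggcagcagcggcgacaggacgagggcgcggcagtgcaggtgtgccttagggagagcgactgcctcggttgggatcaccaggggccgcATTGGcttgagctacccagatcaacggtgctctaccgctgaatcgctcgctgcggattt
Rims1: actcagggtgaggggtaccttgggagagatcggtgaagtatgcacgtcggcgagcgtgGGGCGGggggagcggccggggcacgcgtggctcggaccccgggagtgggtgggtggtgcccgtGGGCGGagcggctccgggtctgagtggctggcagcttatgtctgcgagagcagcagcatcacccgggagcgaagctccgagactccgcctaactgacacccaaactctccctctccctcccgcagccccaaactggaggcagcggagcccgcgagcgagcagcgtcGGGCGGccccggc
Syn1: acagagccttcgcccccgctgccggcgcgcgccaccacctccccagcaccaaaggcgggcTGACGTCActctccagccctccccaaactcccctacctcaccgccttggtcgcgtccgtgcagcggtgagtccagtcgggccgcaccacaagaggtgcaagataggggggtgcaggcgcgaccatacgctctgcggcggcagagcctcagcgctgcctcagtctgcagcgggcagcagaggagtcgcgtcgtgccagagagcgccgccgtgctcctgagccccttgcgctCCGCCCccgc

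The Sv2b window held 1 CCAAT match and no match to the other 4 motifs. That of Rims1 held 3 GGGCGG matches, and that of Syn1 held 2 TGACG matches, which overlap in the palindrome shown in capitals, and 1 GGGCGG match. The 3 GGGCGG matches of Rims1 were matched in number by Syn2, Syt1 and Vamp2, while Sv2a held none of the 5 motifs. None of the 7 windows held TATAAA or AGAACA. Among all 33469 windows of this length, 37.5% held CCAAT, 33.1% GGGCGG, 21.2% TGACG, 20.7% AGAACA and 14.2% TATAAA. The GC content was 62.7% for Sv2b, 70.7% for Rims1 and 71.0% for Syn1, against a median of 51.7% over all windows. These matches describe letters only and were not tested for binding.

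Arrays stood apart in several ways, some of which follow the groups in part. The Rpl37l1 probe, for a ribosomal protein gene, split the arrays into 14 with lower values (the lower state) and 16 with higher values (the higher state), separated by 1.84 on the log2 scale. The split was set at the widest gap of this 1 probe. Within groups 1170 of 13308 probes differed between the states by limma. All 5 male extreme and all 5 female control arrays were in the lower state and all 5 male control arrays in the higher one. Female extreme 2, female minimal 2 and 3 and male minimal 1 were also in the lower state. So only the female extreme, female minimal and male minimal groups held both states, and the state effect within groups came from these alone. In addition, the mean of 10 thalamus genes was 0.74 to 2.17 above its average on 8 female arrays (3 extreme, 3 minimal and 2 control), against -0.65 to -0.08 on the other 22 arrays. The myelin mean was 0.68 to 1.55 on those 8 arrays and -0.997 to 0.94 on the other 22. The striatum and central amygdala mean was 2.08 on female control 3 and -0.53 to -0.29 on the other female controls. It ranged from -0.59 to 1.18 in minimal and -0.81 to 1.29 in extreme females, and from -0.38 to 0.94 in males. The choroid plexus mean reached 2.58 on female extreme 3. Its gene Ttr was higher in extreme than in control females by 2.79 ± 0.80 (limma adjusted p = 0.0324). All 8 listed genes of the amygdala nuclei passed the intensity filter. A gene can pass it with 5 arrays, so this does not show amygdala tissue on each array. Of these genes Cyp26b1, Wfs1 and Etv1 were higher in males than in females by limma (1.16, 0.51 and 0.22), where 8.99% of all probes were higher. Of 10 sex-linked symbols looked up, 0 were found, so the sex labels were not checked.

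The probes were ILMN_1364550 for Sv2b (chromosome 1), ILMN_1348950 for Sv2a (chromosome 2), ILMN_1373112 for Syn1 (chromosome X), ILMN_1368118 for Syn2 (chromosome 4), ILMN_1358657 for Rims1 (chromosome 9), ILMN_1348840 for Snap25 (chromosome 3), ILMN_1357193 for Syt1 (chromosome 7) and ILMN_1360798 for Vamp2 (chromosome 10). A level is given here as the log2 intensity of a probe, so levels are compared between groups and not between genes.

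The first comparison asked how exposure to predator scent related to these genes in males. Sv2b was the 1 of 8 genes that rose, in extreme responders, and the other 7 did not pass in any comparison of male groups. In extreme males Sv2b had log2 intensities of 12.70, 13.22, 13.01, 13.19 and 13.51. In minimal males they were 13.13, 13.46, 12.87, 12.82 and 13.34, and in male controls 11.83, 12.71, 12.24, 12.88 and 12.14. All 10 exposed males were above the control median and 7 of 10 were above the highest control, so the groups overlapped.

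In extreme against control males Sv2b was higher by 0.76 ± 0.17 (log2 fold change ± SE, 5 rats a group), a 1.70-fold difference with a limma adjusted p of 0.0380. Of 13308 probes tested 0.797% passed in this comparison, with 0.301% of all probes higher in extreme males. In minimal against control males the difference was as large, at 0.76 ± 0.17, but its limma adjusted p was 0.694, and 0% of probes passed. The Sv2b probe had the second smallest p of all probes there, among 686 with an unadjusted p under 0.05. Taking all 10 exposed males against the 5 controls gave 0.76 ± 0.15 with a limma adjusted p of 0.0866, the fourth smallest p of 13308, where 0% of probes passed and 1247 had an unadjusted p under 0.05. With array weights 194 probes passed in that comparison, Sv2b among them at 0.76 (limma adjusted p = 0.0102).

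The state of the arrays moved with the male comparison, since no male extreme array shared the state of any male control. With the state as a covariate the difference of extreme from control males was 0.58 and did not pass (limma adjusted p = 0.626). The state effect there came only from the groups with both states, so state and exposure cannot be told apart in these males. In that fit 0 of all probes passed, against 106 without the covariate. Among the 9 higher-state arrays of minimal and control males the Sv2b difference was 0.76. Leaving out 1 array ended the call in extreme males for male extreme 2, 3, 4 and 5 and male control 1, 3 and 5, with differences of 0.63 to 0.79 and limma adjusted p of 0.0552 to 0.108. Without male extreme 1 or male control 4, the comparison of all exposed males passed, with differences of 0.82 and 0.89 and limma adjusted p of 0.0447 and 0.0443.

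Sv2b did not differ between the behavioural classes of males beyond their spread, at 0.00 ± 0.17 for extreme minus minimal (limma adjusted p = 0.998). No probe passed there, and 1330 had an unadjusted p under 0.05. The relative of Sv2b in the vesicle membrane, Sv2a, averaged 7.40 ± 0.14 in extreme, 7.50 ± 0.17 in minimal and 7.52 ± 0.07 in control males (SD, n = 5 each). Its difference in exposed males was -0.07 ± 0.06. The remaining 6 genes differed between exposed and control males by -0.02 (Vamp2) to 0.10 (Syt1), with limma adjusted p of 0.908 to 0.997. The median difference in exposed males was -0.18 over 15 myelin genes, -0.03 over 10 thalamus genes and 0.08 over 9 pallial genes, and their part in the Sv2b difference was not tested. Over the 8 release genes the median difference was 0.05, against -0.0072 over all probes tested.

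**Figure D1:**
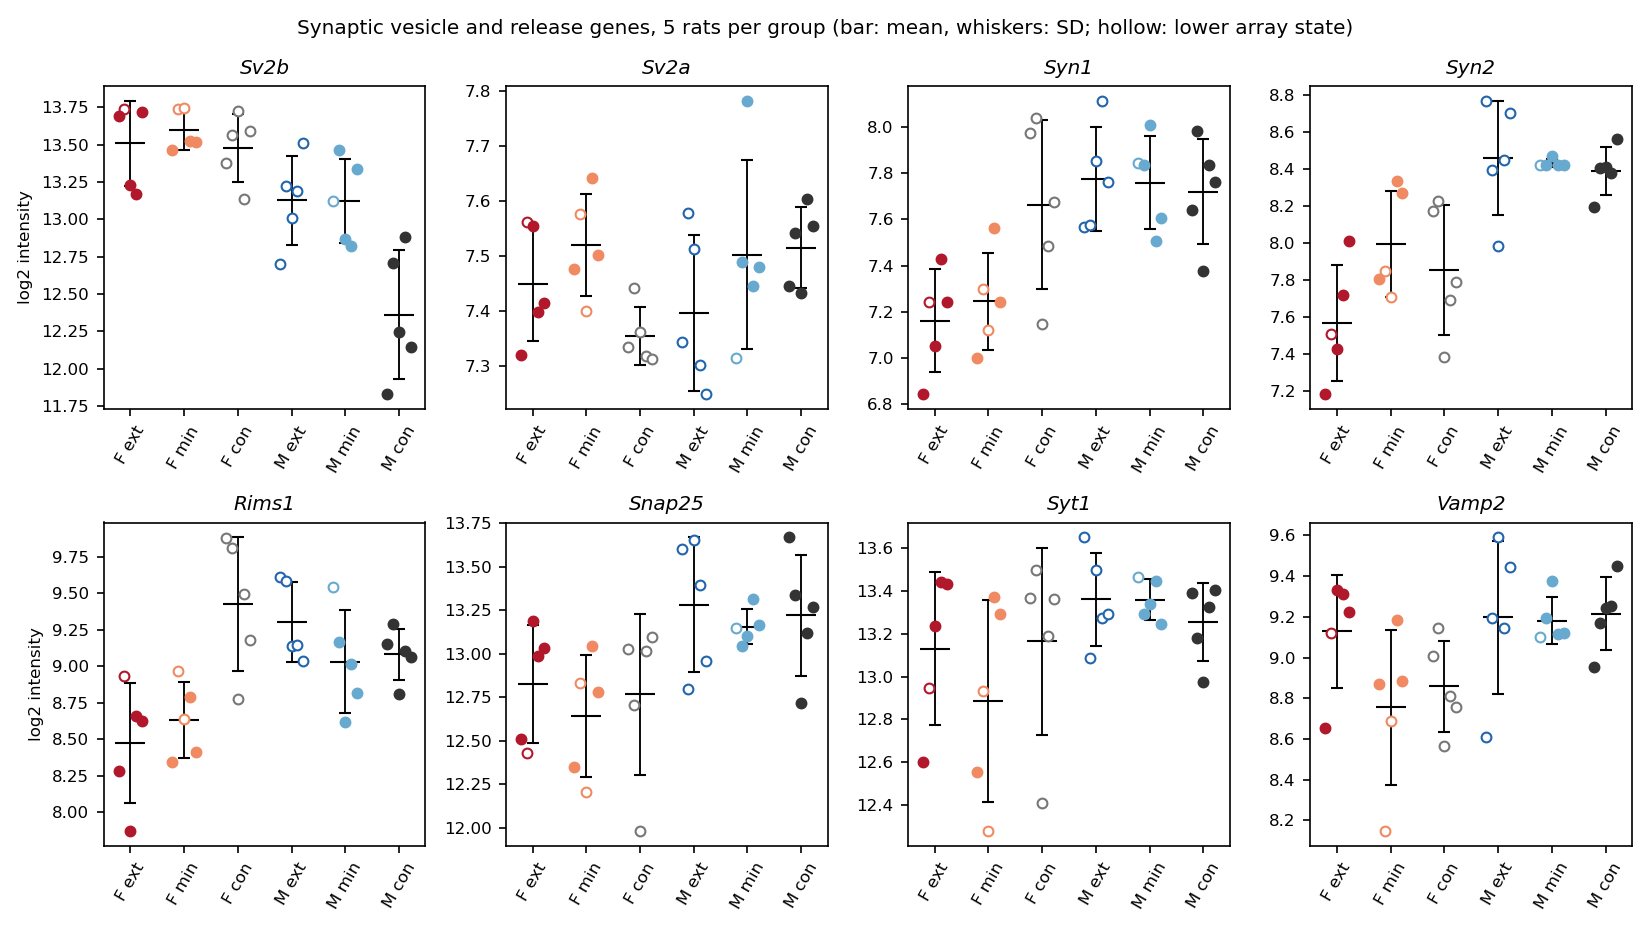
Log2 intensity (vertical axes, with a range of their own in each panel) of the 8 genes in the 6 groups, with F for female, M for male, and ext, min and con for extreme, minimal and control. Points are rats, bars are means, whiskers are the SD (n = 5), and hollow points are arrays in the lower state. In the Sv2b panel the male controls are the lowest group (mean 12.36), and in the Rims1 panel both exposed female groups (8.48 and 8.63) lie under the female controls (9.43).

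In females exposure went with lower Rims1 and Syn1, and Sv2b did not pass. Rims1 had log2 intensities of 8.28, 8.94, 7.87, 8.66 and 8.63 in extreme females and 8.34, 8.97, 8.64, 8.79 and 8.42 in minimal females. In female controls it had 9.88, 9.81, 8.78, 9.50 and 9.18. All 10 exposed females were under the control median and 7 of 10 under the lowest control, which was female control 3. Rims1 fell by 0.87 ± 0.17 on the log2 scale in exposed females (SE, 10 rats against 5, limma adjusted p = 0.00287).

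Syn1 had 6.84, 7.24, 7.05, 7.43 and 7.24 in extreme females and 7.001, 7.30, 7.12, 7.56 and 7.24 in minimal females. In female controls it had 7.97, 8.04, 7.15, 7.48 and 7.67. All 10 exposed females were under the control median, but 4 were under the lowest control, again female control 3. The values of female extreme 1 (6.84) and female minimal 1 (7.001) were under the array median of 7.02. Syn1 fell by 0.46 ± 0.13 in exposed females (limma adjusted p = 0.0309). So 2 of the 8 genes were called, both lower, where 6.87% of all probes were called, 3.6% lower and 3.27% higher. The medians were -0.05 over the 8 genes and 0.0019 over all probes.

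Set against controls 1 class at a time, Rims1 fell in both classes of exposed females. The decrease was 0.95 ± 0.20 in extreme females (limma adjusted p = 0.00454) and 0.80 ± 0.20 in minimal females (limma adjusted p = 0.0333). Syn1 fell in extreme females by 0.50 ± 0.15 (limma adjusted p = 0.0425), and its difference in minimal females, -0.42 ± 0.15, did not pass (limma adjusted p = 0.152). Of all probes 6.53% passed in extreme females, with 3.18% of all probes lower, and 1.98% in minimal females, with 1.15% lower. These 2 comparisons share the 5 control rats.

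Between extreme and minimal females 0 of the 8 genes passed by limma, as did 0.128% of probes. The nearest were Syn2 at -0.42 ± 0.16 (unadjusted p = 0.0127, limma adjusted p = 0.402) and Vamp2 at 0.37 ± 0.17 (unadjusted p = 0.0335, limma adjusted p = 0.496). Syn2 averaged 7.57 ± 0.31 in extreme and 7.99 ± 0.29 in minimal females (SD, n = 5 each). For Rims1 the difference was -0.16 ± 0.20 and for Syn1 -0.08 ± 0.15.

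The state of the arrays and markers of other cells moved with exposure in females. All 5 female controls were in the lower state, as was 1 of 5 extreme and 2 of 5 minimal females. With the state as a covariate Rims1 was at -0.54 (limma adjusted p = 0.0996) and Syn1 at -0.44 (limma adjusted p = 0.121). The state effect in that fit came only from extreme females, minimal females and minimal males, and from no control rats. Among lower-state females alone, 3 exposed against 5 controls, Rims1 was at -0.56 and Syn1 at -0.44. Only 1 of those exposed females was an extreme responder. All 3 had a high thalamus mean (0.80 to 2.17), as did 2 of the 5 controls. Within groups Rims1 was lower in the higher state by 0.47 ± 0.17 (limma adjusted p = 0.0805), and Syn1 differed by -0.03 ± 0.14.

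Of 15 genes of oligodendrocytes and myelin 14 had positive differences in exposed females, and 0 passed by limma (median 0.51). The myelin mean ranged from -0.18 to 1.55 in extreme, -0.42 to 1.31 in minimal and -0.997 to 0.94 in control females. Of 9 markers of pallial excitatory neurons 2 fell, Lamp5 by 1.58 ± 0.40 and the kinase gene Camk2a by 0.80 ± 0.23, and 0 of 10 thalamus genes passed (median 0.43). Of 11 astrocyte genes 2 fell, Mlc1 by 0.67 ± 0.21 and Cldn10 by 0.46 ± 0.08, and of 10 microglia genes 1 fell, C1qc by 0.39 ± 0.12, where 3.6% of all probes were lower. The pallial mean ranged from -0.91 to 0.28 in extreme, -0.84 to 0.25 in minimal and -1.06 to 0.52 in control females. With the thalamic, striatal and pallial means as covariates the Rims1 difference was -0.77 (limma adjusted p = 0.00552) and that of Syn1 -0.36 (limma adjusted p = 0.0257). On the 22 arrays with a low thalamus mean, which hold 4 exposed and 3 control females, Rims1 was at -0.86 and passed (limma adjusted p = 0.0361), and Syn1 was at -0.35 and did not (limma adjusted p = 0.320). Fewer cells of a type and less RNA per cell cannot be told apart in these whole-tissue samples.

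Single arrays decided the call of Syn1 but not that of Rims1 in all exposed females. The Rims1 difference stayed between -1.04 and -0.76 whichever array was left out, and passed each time. Syn1 did not pass without female extreme 1 or 3, female minimal 1 or female control 1, 2 or 5 (-0.46 to -0.37, limma adjusted p of 0.0506 to 0.145). In extreme against control females it did not pass without female extreme 1, 2, 3 or 5 or female control 1, 2 or 5 (limma adjusted p of 0.0531 to 0.148). In minimal females Rims1 did not pass without female minimal 1, 3 or 5 or female control 1, 2 or 4 (limma adjusted p of 0.0522 to 0.110). Without female control 3 Syn1 passed in minimal females, at -0.55 (limma adjusted p = 0.0423).

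The other 6 genes did not pass in exposed females. Sv2b had 13.69, 13.74, 13.23, 13.17 and 13.72 in extreme females and 13.46, 13.74, 13.75, 13.52 and 13.52 in minimal females. In female controls it had 13.37, 13.57, 13.72, 13.14 and 13.59. The Sv2b groups overlapped widely, and the difference in exposed females was 0.07 ± 0.15 (limma adjusted p = 0.835). Sv2a was at 0.13 ± 0.06, Syn2 at -0.07 ± 0.14, Snap25 at -0.03 ± 0.18, Syt1 at -0.16 ± 0.17 and Vamp2 at 0.08 ± 0.14, with limma adjusted p of 0.252 to 0.950.

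**Figure D2:**
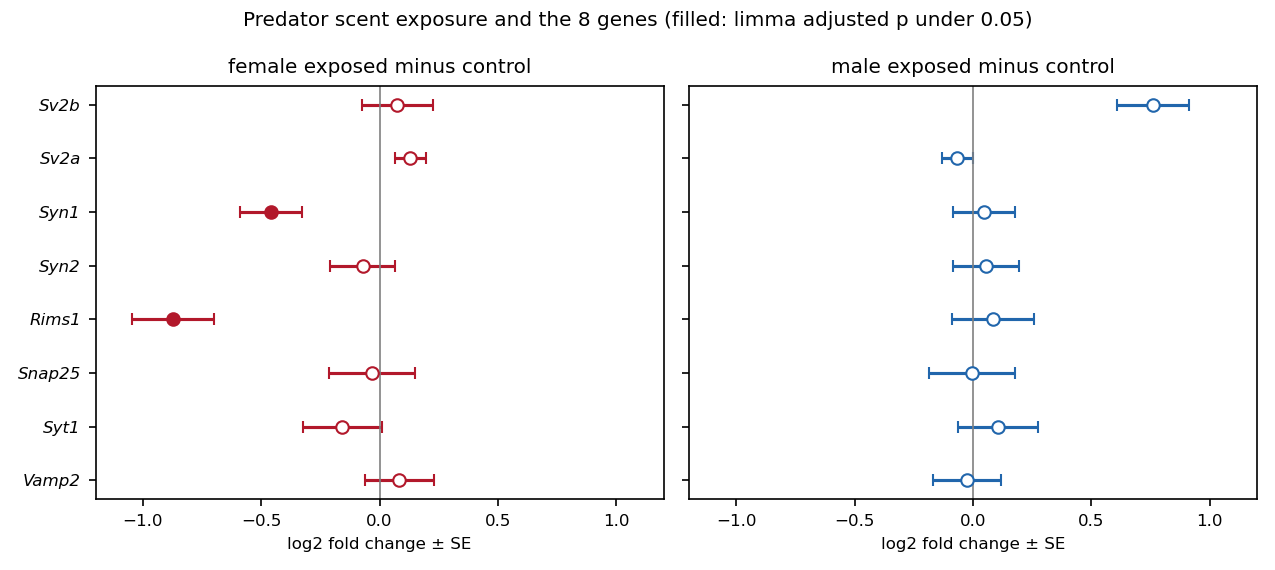
Log2 fold change ± SE (horizontal axes) of the 8 genes in exposed against control rats, in females on the left and males on the right (10 exposed and 5 control rats of each sex). Filled points passed limma at an adjusted p under 0.05. Rims1 (-0.87) and Syn1 (-0.46) are filled for females, and Sv2b (0.76) stands apart from the other 7 in males but is not filled.

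Whether the difference between exposed and control rats itself differed between the sexes was tested as the male difference minus the female difference. For Rims1 it was 0.96 ± 0.25 in exposed rats (limma adjusted p = 0.0246) and 1.17 ± 0.28 in extreme rats (limma adjusted p = 0.0107). That was 1 of the 8 genes in each test, where 4.49% of probes passed for exposed rats (2.24% with a positive value) and 8.21% for extreme rats (4.04% positive). Rims1 averaged 9.17 ± 0.33 in exposed and 9.08 ± 0.17 in control males, and 8.55 ± 0.33 in exposed and 9.43 ± 0.46 in control females (SD). For Sv2b the male difference exceeded the female one by 0.69 ± 0.21 in exposed rats (limma adjusted p = 0.0605) and by 0.73 in extreme rats (limma adjusted p = 0.0650), which did not pass. With the array state as a covariate none of the 8 genes passed either test. The state effect in these fits came only from the groups with both states, which include no controls. In those fits 14 and 6 of all probes passed, against 597 and 1092 without the covariate. On the 22 arrays with a low thalamus mean Rims1 was at 0.95 and 1.06 with limma adjusted p of 0.0509 and 0.0653. The call of Rims1 in exposed rats was also lost without female control 1 or 2 or male control 3 (limma adjusted p of 0.0582 to 0.0636).

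The Sv2b sex difference in exposed rats passed when any of female minimal 2, female control 4, male extreme 1 or male control 2 or 4 was left out (limma adjusted p of 0.0286 to 0.0490). In extreme rats it passed without female control 4, male extreme 1 or male control 2 or 4 (limma adjusted p of 0.0272 to 0.0468). Syn1 passed both tests without female control 3, at 0.64 in exposed and 0.68 in extreme rats (limma adjusted p of 0.0326 and 0.0310).

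Between the sexes, over the 3 groups of each, Sv2b ran against the other genes. It was lower in males, at 12.87 ± 0.49 against 13.53 ± 0.21 in females (SD, n = 15 each), a difference of -0.66 ± 0.10 (SE, limma adjusted p = 0.000135). Its lowest, median and highest values were 11.83, 12.88 and 13.51 in males and 13.14, 13.57 and 13.75 in females. Both synapsin genes were higher in males. Syn2 ran from 7.98 to 8.77 in males (median 8.42) and from 7.18 to 8.34 in females (median 7.79). It averaged 8.43 ± 0.18 in males and 7.81 ± 0.35 in females, a difference of 0.62 ± 0.09 (limma adjusted p = 0.00011), and Syn1 differed by 0.39 ± 0.09 (limma adjusted p = 0.0023).

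Snap25 ran from 12.72 to 13.67 in males and from 11.98 to 13.19 in females, and Vamp2 from 8.61 to 9.59 and from 8.15 to 9.33. These SNARE genes were also higher in males, by 0.47 ± 0.12 (limma adjusted p = 0.0068) and 0.28 ± 0.10 (limma adjusted p = 0.0378). Rims1 at 0.29 ± 0.12 (limma adjusted p = 0.0740), Syt1 at 0.26 ± 0.11 (limma adjusted p = 0.0999) and Sv2a at 0.03 ± 0.04 did not pass. So 4 of the 8 genes were higher and 1 was lower in males, where 19.2% of probes passed, 8.99% higher and 10.2% lower. All 8 genes overlapped between the sexes. The median difference over the 8 genes was 0.29, against -0.0052 over all probes.

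Some lists of markers of cell types and of other tissue also differed between the sexes. Of 15 myelin genes 12 were lower in males (median -1.11), as were 10 of 10 thalamus genes (median -0.79), and 5 of 9 markers of pallial excitatory neurons were higher (median 0.62). None of 10 microglia genes and none of 6 endothelial genes passed by limma, and of 11 astrocyte genes 1 was higher and 2 were lower. Of the GABAergic interneuron genes Sst, Vip, Crhbp, Reln, Lhx6 and Dlx1 were higher in males and Gad1 lower. The pan-neuronal genes Map2, Celf4 and Rbfox1 (0.46, 0.42 and 0.29) and the striatal gene Meis2 were higher. Lower were the hypothalamus genes Pomc, Pmch (-1.95), Trh, Hcrt and Hdc and the choroid plexus gene Ttr (-2.80). The other genes of these lists did not pass. With the myelin mean as a covariate Sv2b was at -0.65 (limma adjusted p = 0.0227) and Syn2 at 0.36 (limma adjusted p = 0.0475), and the other 6 genes did not pass. In that fit 77 of all probes passed, against 2553 without the covariate. With the 3 regional means Sv2b alone passed, at -0.63 (limma adjusted p = 0.0247). On the 22 arrays with a low thalamus mean Sv2b was at -0.64 (limma adjusted p = 0.0282) and again passed alone, with Syn2 at 0.39 (limma adjusted p = 0.0538) and Snap25 at 0.39 (limma adjusted p = 0.142). There Syn1 was at 0.26 (limma adjusted p = 0.229) and Vamp2 at 0.13 (limma adjusted p = 0.593). The counts over all probes in the regional and low-thalamus fits are not given here.

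The call of Vamp2 was lost when any of 12 arrays was left out: male extreme 3 or 5, male minimal 2 or 3, male control 4 or 5, female extreme 1, female minimal 2 or 3, or female control 3, 4 or 5 (0.23 to 0.28, limma adjusted p of 0.0501 to 0.0699). Rims1 passed without male minimal 3, female extreme 2 or female control 1 or 2 (limma adjusted p of 0.0390 to 0.0498). Syt1 passed without female minimal 4 (limma adjusted p = 0.0483).

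**Figure D3:**
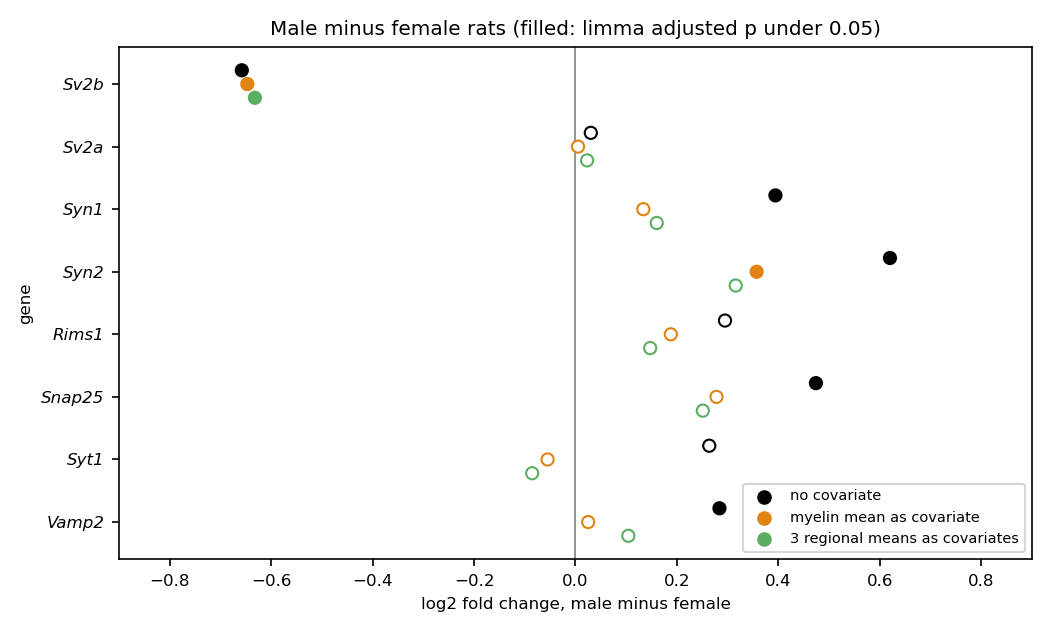
Log2 fold change of males minus females (horizontal axis, 15 rats each) for the 8 genes in the fit with no covariate and with the myelin mean or the 3 regional means as covariates. Filled points passed limma at an adjusted p under 0.05. Sv2b lies near -0.65 in all 3 fits, while Syn1 moves from 0.39 to 0.13 with the myelin mean.

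The order of the groups by level also set Sv2b apart. Sv2b was highest in minimal females at 13.60 ± 0.14, followed by extreme females at 13.51 ± 0.28, female controls at 13.48 ± 0.23, extreme males at 13.13 ± 0.30, minimal males at 13.12 ± 0.28 and male controls at 12.36 ± 0.43 (SD, n = 5 each). Neighbours further apart than the larger of their SDs were female controls and extreme males (0.35 apart), and minimal males and male controls (0.76 apart), and the other 3 neighbouring pairs were not. For Rims1 the order was female controls (9.43 ± 0.46), extreme males (9.30 ± 0.27), male controls (9.08 ± 0.17), minimal males (9.03 ± 0.35), minimal females (8.63 ± 0.26) and extreme females (8.48 ± 0.41). Of the 5 steps 1 exceeded the larger SD, that between minimal males and minimal females (0.40). Syn1 had 1 such step, between female controls and minimal females, and Syn2 had 1, between male controls and minimal females. Sv2a, Snap25, Syt1 and Vamp2 had none.

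Syt1, the calcium sensor, averaged 13.36 ± 0.22 in extreme, 13.36 ± 0.10 in minimal and 13.25 ± 0.18 in control males. In extreme, minimal and control females it averaged 13.13 ± 0.36, 12.89 ± 0.47 and 13.17 ± 0.44. Snap25 averaged 13.28 ± 0.39, 13.16 ± 0.10 and 13.22 ± 0.35 in the same male groups. Its female means were 12.83 ± 0.34, 12.64 ± 0.35 and 12.77 ± 0.46 (SD, n = 5 each).

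Vamp2 averaged 9.20 ± 0.38 in extreme, 9.18 ± 0.12 in minimal and 9.21 ± 0.18 in control males. Its female means were 9.13 ± 0.28, 8.75 ± 0.38 and 8.86 ± 0.22 in the same order of classes.

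Each gene was next expressed as its deviation from its own mean over the 30 arrays, and Sv2b was set beside the mean of the other 7. In extreme males Sv2b was at -0.07 ± 0.30 and the other 7 at 0.20 ± 0.06, and in minimal males they were at -0.08 ± 0.28 and 0.15 ± 0.06. In male controls Sv2b was at -0.84 ± 0.43 and the other 7 at 0.15 ± 0.12 (SD, n = 5 each). A mean over 7 genes varies less than 1 gene, so the 2 SDs are not comparable.

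In females the 2 values lay on the other side of each other. Centring each gene over equal numbers of females and males fixes this mirror image, which restates the difference between the sexes. In extreme females Sv2b was at 0.31 ± 0.28 and the other 7 at -0.23 ± 0.21, and in minimal females at 0.40 ± 0.14 and -0.24 ± 0.22. Female controls had 0.28 ± 0.23 for Sv2b and -0.04 ± 0.30 for the other 7. The difference of Sv2b from the others was larger in exposed than in control rats by 0.73 in males and by 0.27 in females. Leaving out 1 array at a time gave 0.60 to 0.86 in males and 0.19 to 0.46 in females. On the arrays with a low thalamus mean the female value was -0.07. No test was made of this score.

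**Figure D4:**
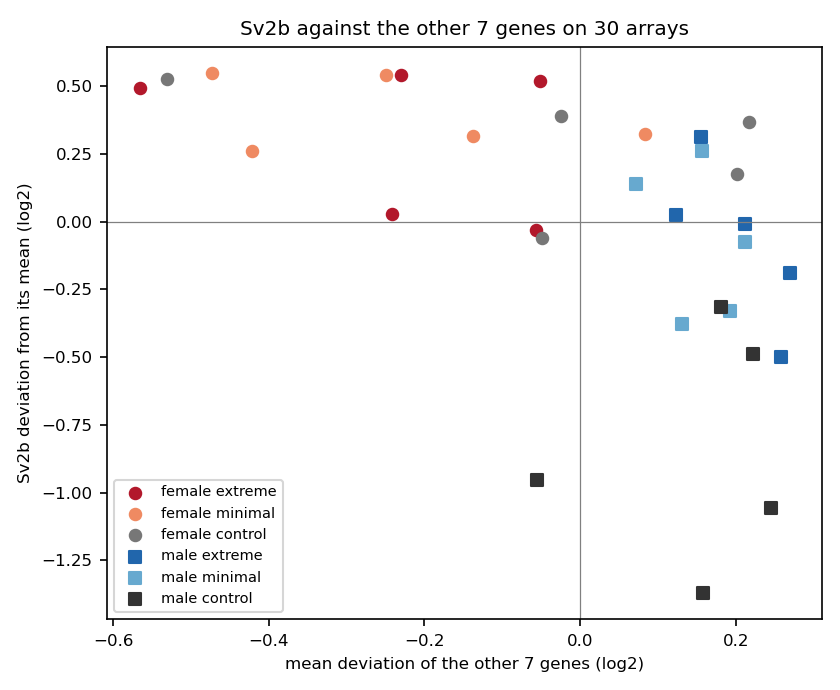
Deviation of Sv2b from its mean (vertical axis, log2) against the mean deviation of the other 7 genes (horizontal axis, log2) on each of the 30 arrays, with circles for females and squares for males. The male controls lie lowest (mean -0.84), and the female arrays spread along the horizontal axis.

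Within groups 3 of 28 pairs of genes varied together past the test over all arrays, none of them with Sv2b. Pearson correlations of deviations from the group means were computed over 30 arrays for 28 pairs of genes, with 100000 permutations of arrays within groups. Without Sv2b 19 of 21 pairs were positive (median r 0.35), and with Sv2b 2 of 7 were (median r -0.03). Of the 21 pairs without Sv2b 10 were positive in males (median r -0.07) and 21 in females (median r 0.56), and of the 7 pairs with Sv2b 3 were positive in males and 1 in females. The difference between the sexes was not tested. All genes of an array share its RNA and its normalization, and the female arrays differ in thalamic and myelin content, so these values describe the arrays.

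The closest pair was Snap25 and Syt1, with r = 0.82 and Spearman's rho = 0.73 (permutation p = 5e-05 and 0.00019, adjusted over the 28 pairs 0.0014 and 0.0053). Without the 2 arrays farthest from the median of Snap25, r was 0.75. It was 0.80 in males, 0.87 in females and 0.86 in the 8 females with a high thalamus mean. This pair therefore ran together in both sexes.

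Syt1 also ran with Syn2 (r = 0.70, rho = 0.62, permutation p = 0.00078 and 0.0035, adjusted 0.0109 and 0.0497) and with Syn1 (r = 0.61, rho = 0.52, permutation p = 0.0013 and 0.0074, adjusted 0.0121 and 0.0523). Without the 2 arrays farthest from the median of the synapsin, r was 0.74 and 0.48. In males r was 0.04 with Syn2 and 0.11 with Syn1, against 0.87 and 0.81 in females, a difference that was not tested. For Sv2b the largest value was with Snap25, at r = -0.49 and rho = -0.52 (permutation p = 0.0103 and 0.0075, adjusted 0.0554 and 0.0523), which did not pass. It was -0.49 in males and -0.55 in females.

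**Figure D5:**
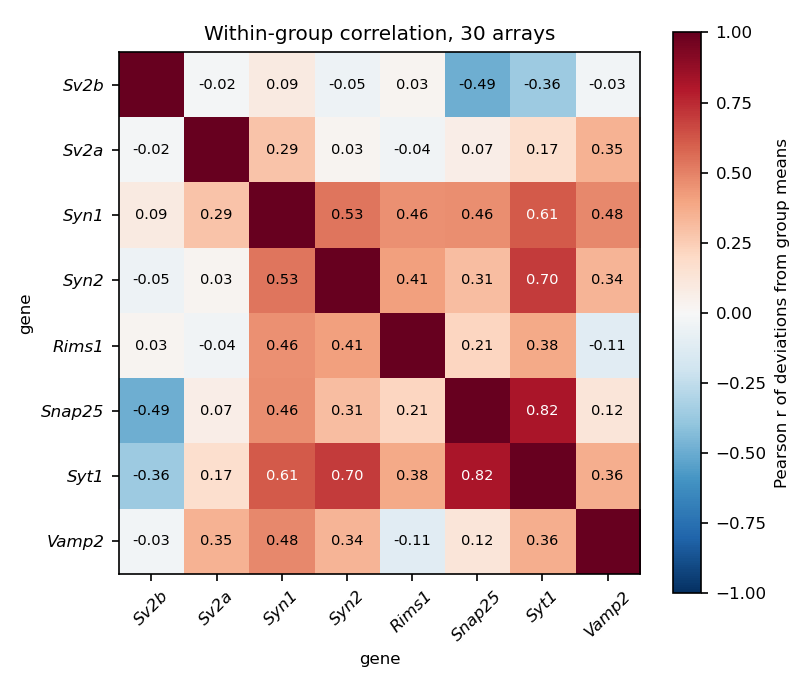
Pearson r between pairs of the 8 genes, computed on deviations from group means over 30 arrays (colour scale from -1 to 1, values in the cells). The pair of Snap25 and Syt1 is the highest at 0.82, and the row of Sv2b holds the lowest value, -0.49 with Snap25.

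Genes outside the set were ranked by the same within-group correlation over 30 arrays, among 9157 genes with 1 probe each. For Sv2b the highest were Slc38a6 (0.71), Mdm1 (0.68) and Bnip2 (0.66), and the lowest Ube2q2l (-0.71), Nmbr (-0.67) and Ier5 (-0.66). Rims1 was followed by Tspan7 (0.79), Rab6b (0.77) and Tspan5 (0.76), and Syn1 by Mapk10 (0.85), Fbxo41 (0.84) and Gpr162 (0.84). Syn2 was followed by Kpna1 (0.84), Snap25 by Ywhah (0.87), Syt1 by Chrm3 (0.89), Vamp2 by Tle5 (0.85) and Sv2a by Tmem151b (0.72). These were picked as the extremes of that ranking and carry no p.

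The wider release pathway was read from 6 lists of related genes, 91 in all. In exposed females 8 of the 91 passed (8.79%), near the 6.87% of all probes. In exposed females 0 of 15 other vesicle membrane genes rose and 2 fell: Rab3a, the vesicle GTPase that binds RIM1, by 0.47 ± 0.14, and Svop, a transporter-like relative of the SV2 proteins, by 0.50 ± 0.16. Of 18 active zone genes 1 fell, the scaffold gene Cask, by 0.30 ± 0.06, and of 17 SNAREs and fusion partners 1 fell, the presynaptic gene Prrt2, by 0.47 ± 0.10. Of 11 further genes of the synaptotagmin and Doc2 families Syt12 fell by 0.58 ± 0.13 and Syt11 rose by 0.23 ± 0.07.

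In the same comparison 2 of 14 proton pump and transporter genes rose, the pump subunit genes Atp6v1h by 0.41 ± 0.12 and Atp6v1f by 0.19 ± 0.06, and 0 of 16 endocytosis genes passed. The medians of the 6 lists lay between -0.09 and -0.03, against 0.0019 over all probes. In extreme females 8 of the 91 genes passed (8.79%, against 6.53% of all probes), among them 3 of 17 SNAREs and fusion partners. There Nsf, the ATPase that takes SNARE complexes apart, fell by 0.73 ± 0.19 and its adaptor gene Napa by 0.40 ± 0.11. In minimal females 2 of the 91 passed (2.2%, against 1.98% of all probes), of which Cask fell by 0.29 ± 0.07 and Prrt2 by 0.48 ± 0.11.

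In males 0 of the 91 genes of the 6 lists passed by limma, where 0% of all probes passed in exposed and 0.797% in extreme against control males. An unadjusted p under 0.05 was found for 7 of them in exposed males (7.69%, against 9.37% of all probes) and for 10 in extreme males (11%, against 13.8%). Between the sexes 29 of the 91 passed (31.9%, 24 higher and 5 lower in males), where 19.2% of all probes did (8.99% higher and 10.2% lower). Higher and lower in males were 3 and 1 of 15 vesicle membrane genes and 4 and 1 of 17 SNAREs and fusion partners. The same counts were 5 and 2 of 18 active zone genes and 3 and 0 of 11 synaptotagmin and Doc2 genes. They were 4 and 0 of 16 endocytosis genes and 5 and 1 of 14 pump and transporter genes. The syntaxin gene Stx1a, partner of SNAP25 and VAMP2 in fusion, was higher in males by 0.97 ± 0.18, the active zone genes Lin7b and Rimbp2 by 0.75 ± 0.11 and 0.72 ± 0.14, and the endocytosis gene Pacsin1 by 0.73 ± 0.11. The vesicular glutamate transporter gene Slc17a6, which thalamic neurons express strongly, was lower in males, at -2.15 ± 0.44, and the cortical form Slc17a7 was higher by 0.63 ± 0.20. The thalamus and myelin genes moved with these differences, as given above, and their part in the differences of these lists was not tested.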

How the data were processed

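Transcripts were measured in amygdala RNA of 30 rats on Illumina BeadChips. The authors deposited 1 table of processed values for 22523 probes, taken here as log2 intensities because they lie between 6.38 and 15.06, and its columns share their quantiles. How background was corrected and which software normalized the values is not given in the sources used. Per the labels, RNA was isolated on RNeasy columns and labelled with the TotalPrep kit. Another deposited table was not used, because its 60 columns match no sample, so a planned background-corrected test was replaced by the fit below.

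Probe names came from the platform annotation (13793 probes with 1 symbol, 8730 with none, 0 with several). Each of the 8 genes has 1 probe. A probe was tested if it exceeded the median of its array in 5 or more arrays, which left 13308. Means of the 6 groups were fitted with limma 3.58.1 in R 4.3.3 (24 residual degrees of freedom), giving 13 comparisons, each adjusted by Benjamini and Hochberg over all probes, with a threshold of 0.05. Correlations and permutations used Python 3.11.15. The fit was tested on simulated data. The number of arrays limits the precision.

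Genes and lists were chosen with earlier results of these data known. Named genes were the 8 genes, up to 4 of each pathway list and 3 of each marker list with the smallest p, and the most correlated genes; Slc17a6, Slc17a7 and the genes named between the sexes were chosen after their values were seen. Alternatives were other filters, cyclic loess, array weights, robust variances, 1 probe per gene, arrays of 1 sex, the replicate block, state and marker covariates, and each array left out. Fits on arrays of 1 state and on arrays with a low thalamus mean were added after seeing the data. Same-numbered arrays of extreme and minimal females deviated together (correlations of 0.15 to 0.69, mean 0.42, against -0.10 for other numbers). The numbers follow the order of the samples, and the labels give no pairing. In both groups arrays 1, 2 and 3 are those with a high thalamus mean, and 3 of 5 matched their own number best. The source of these correlations was not tested.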

Additional observations from a re-analysis of the deposited data

Results flagged for a closer look

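Among 48 groups of 5 values (8 genes in 6 groups), 2 had a rat whose gap to its nearest neighbour took up more than 0.71 of the range of the group, where chance alone gives about 5% of groups. Syn2 in male minimal 3 was at 8.47, against 8.42 for the nearest rat, in a group with an SD of only 0.02. Syt1 in female control 3 was at 12.41, against 13.19 for the nearest rat. That array also had the lowest Rims1, Syn1, Syn2, Snap25 and Vamp2 among the female controls. Its striatum and central amygdala mean (2.08) was the highest of the 30 arrays. Its pallial mean (-1.06) and its mean of pan-neuronal markers (-0.47) were the lowest. The Rims1 difference between exposed and control rats differed between males and females by 0.96 on the log2 scale (limma adjusted p = 0.0246), and that between extreme and control rats by 1.17 (limma adjusted p = 0.0107). Neither difference passed with the array state as a covariate, where 14 and 6 of all probes passed.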

How the results depend on the processing

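Of 1376 values of single genes under alternatives other than leaving out an array, 1321 stayed on their side of the threshold, 39 lost it, 16 gained it and 0 changed direction while past it. The number of the 8 genes that passed was 2 in exposed and in extreme against control females, 1 in minimal females, 0 in exposed males, 1 in extreme males, 5 between the sexes, and 1 in each sex difference of exposed and of extreme rats. With the array state as a covariate it was 0 in all 3 female comparisons, in extreme males (0 of all probes) and in both sex differences (14 and 6 of all probes). No control group holds both states, so that covariate rests on exposed rats alone. Among lower-state arrays it was 0 in the 3 female comparisons. On arrays with a low thalamus mean it was 1 in exposed females, 0 in extreme and in minimal females, 1 in exposed males, 1 between the sexes and 0 in both sex differences, and the Sv2b score in females was -0.0704, against 0.27. Fewer arrays entered those last fits. With no filter it was 1 in extreme females and 0 in extreme males. With array weights it was 1 in exposed males (194 of all probes) and 2 in the sex difference of exposed rats (1403 of all probes, against 597 in the main fit). With the replicate block, although the labels give no pairing by number, it was 2 in both sex differences (Sv2b gained, limma adjusted p = 0.0479 and 0.0493). Rims1 then passed between the sexes (limma adjusted p = 0.0161), and the block changed no other call of the 8 genes. With female arrays alone it was 1 in exposed, 1 in extreme and 0 in minimal females, and with male arrays alone 1 in exposed males. With the pan-neuronal mean or the 3 regional means it was 1 in exposed males and 2 in both sex differences. With the regional means 1578 of all probes passed in the sex difference of extreme rats, against 1092 in the main fit. Where no count over all probes is given beside a fit, a gained or lost call may follow that count. Between the sexes it was 2 with the myelin mean (77 of all probes) and 1 with the regional means. The causes were not tested. Leaving out 1 array gave 1 to 2 genes in exposed and in extreme females, 0 to 2 in minimal females, 0 to 1 in exposed and in extreme males, 4 to 6 between the sexes, 0 to 2 and 1 to 2 in the sex differences of exposed and of extreme rats, and 0 to 0 in the others. The Sv2b score ranged from 0.60 to 0.86 in males and 0.19 to 0.46 in females. Over all probes, calls ranged from 328 to 1278 in exposed females, 134 to 1116 in extreme females, 39 to 592 in minimal females, 0 to 194 in exposed males, 0 to 362 in extreme males and 77 to 2786 between the sexes. Other probes of the genes could not be tried, as each has 1. The spread of 5 rats a group limits what could be detected.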
